A study of Mus musculus with 12 samples.

Results

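Foxp3, Foxp1, Foxp4, Foxo1 and Foxo3 encode 5 transcription factors that share the forkhead DNA-binding domain and act in T cells. They were taken by gene symbol from a table of 55450 genes, and all 5 passed the filter on low counts that left 15361 genes for testing. RNA was sequenced from 12 libraries of mouse thymus, 4 for each of 3 sorted CD4+ T cell populations. The mice carried CD4-Cre and Foxp3-GFP, so every group, Tconv included, has Cre driven by Cd4 elements and a green fluorescent reporter of Foxp3. The labels name no floxed allele and no age. Eos+ Tregs were sorted as Foxp3+ cells positive for Ccr6 and Cxcr4, Eos- Tregs as Foxp3+ cells negative for both receptors, and Tconv (conventional T cells) as Foxp3- cells. Eos is the protein of Ikzf4, a partner of Foxp3, and was itself not part of the sort. The labels do not say whether the 4 libraries of a group came from separate animals. The Y-linked gene Ddx3y was present in libraries 1 and 3 of every group and at 0 in libraries 2 and 4, so the libraries of a group do not all come from the same animal. Whether libraries 1 and 3, or 2 and 4, do is not given, and the p-values reflect library-to-library spread that may in part be technical. Same-numbered libraries of the 3 groups share a code in their names, whose meaning the labels do not give.

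Foxp3 defines regulatory T cells (Tregs): it raises genes such as Il2ra and Ctla4 and lowers others, and its loss leads to lethal autoimmunity. Foxp1 and Foxp4 belong to the same FoxP branch of the family. Foxp1 keeps naive T cells quiescent and in Tregs helps Foxp3 to stay on DNA, and Foxp4 acts in T cell recall responses. Foxo1 and Foxo3 of the FoxO branch bind the Foxp3 gene and help to switch it on in the thymus, and Foxo1 also drives genes of naive T cell survival and homing such as Il7r and Klf2. The kinase Akt phosphorylates FoxO proteins, which then leave the nucleus. Transcript levels therefore do not report how much FoxO protein is active.

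The stretches upstream of the annotated RefSeq starts of Foxp3 and Foxo1 are shown because these members were low together in the same libraries, as described further on. This does not single them out: all 5 members and 12.9% of all tested genes were lowest in library 1 of both Treg populations. The part of these stretches in the low levels was not tested. The build is GRCm38.p6, all 3 stretches are on the + strand and lie outside the exons of their own gene, and capitals mark the forkhead core AAACA or its reverse complement TGTTT.
Foxp3 chrX:7579426-7579566: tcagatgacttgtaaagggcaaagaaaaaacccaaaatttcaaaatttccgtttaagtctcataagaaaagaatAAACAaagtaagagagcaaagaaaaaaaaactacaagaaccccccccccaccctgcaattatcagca
Foxp3 chrX:7580233-7580482: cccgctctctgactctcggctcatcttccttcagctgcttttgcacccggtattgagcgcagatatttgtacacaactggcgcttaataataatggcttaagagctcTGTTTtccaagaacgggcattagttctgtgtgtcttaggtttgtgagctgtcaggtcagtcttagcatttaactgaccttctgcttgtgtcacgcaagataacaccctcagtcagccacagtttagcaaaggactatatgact
Foxo1 chr3:52268087-52268335: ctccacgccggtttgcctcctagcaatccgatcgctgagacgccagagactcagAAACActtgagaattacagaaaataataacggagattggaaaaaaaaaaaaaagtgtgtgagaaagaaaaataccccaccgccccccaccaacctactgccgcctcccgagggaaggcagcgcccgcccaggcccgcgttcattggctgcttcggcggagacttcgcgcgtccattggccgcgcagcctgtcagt
RefSeq entries matched 5 of 5 members, with 8 starts among them. In the 250 bases upstream of each start, the core occurred 2 times and 1 time at the Foxp3 starts, 3, 3 and 1 times at the Foxp1 starts, 1 time at Foxo1, and at no place before Foxp4 and Foxo3. Of 32851 upstream windows of the same length, 46.4% held the core on either strand. The longer motif GTAAACA, which contains the core, was searched on both strands. It was in 3.17% of the windows and in none of the members' windows. The core is short and common, and a match describes letters, not a bound site.

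Depth was 23.9 to 37.9 M expected counts per library. Levels are given as CPM on totals scaled by TMM, a normalization for library composition. T cell genes checked the sort: the summed CPM of 7 CD4 T cell markers ranged over 5880 to 6380 (Eos+ Tregs), 6940 to 7580 (Eos- Tregs) and 8170 to 8950 (Tconv). Ccr6 was 227 to 263 CPM in Eos+ Tregs against 10.4 to 19.7 in Eos- Tregs, whereas Cxcr4 transcript overlapped between them (25.2 to 52.9 and 22.7 to 42.3 CPM). Ikzf4 means were 314 ± 17.5 CPM (Eos+ Tregs), 171 ± 12.7 (Eos- Tregs) and 25.3 ± 2.22 (Tconv; SD, n = 4), so Eos- Tregs were not free of its transcript. Libraries numbered 1 stood apart. On the second principal component (18% of the variance) Eos- Treg library 1 lay at 19.4 and the other Eos- Treg libraries between -84.8 and -60.7. On the same axis Eos+ Treg library 1 lay at 54.3 and Tconv library 1 at 56.6, each above the rest of its group. Library numbers are shared across the groups, and same-numbered libraries deviated together, so fits with the number as a block are given where they change a call.

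Foxp3 transcript was abundant in both Treg populations and nearly absent from Tconv, and its level in the Treg libraries numbered 1 was far below that in all others. Foxp3 (ENSMUSG00000039521.13, chromosome X, 7573644 to 7595245, + strand, mm10) stood at 55.0, 485, 820 and 655 CPM in Eos+ Treg libraries 1 to 4. In Eos- Treg libraries 1 to 4 it stood at 53.3, 653, 862 and 760 CPM, and in Tconv at 0.687, 3.19, 3.42 and 0.841 CPM. Every Treg library was above every Tconv library, and library 1 was the lowest of each group. In deposited expected counts the Treg libraries numbered 1 held 1755.19 and 1282.14 for Foxp3, so the low level does not rest on a handful of reads.

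**Figure D1:**
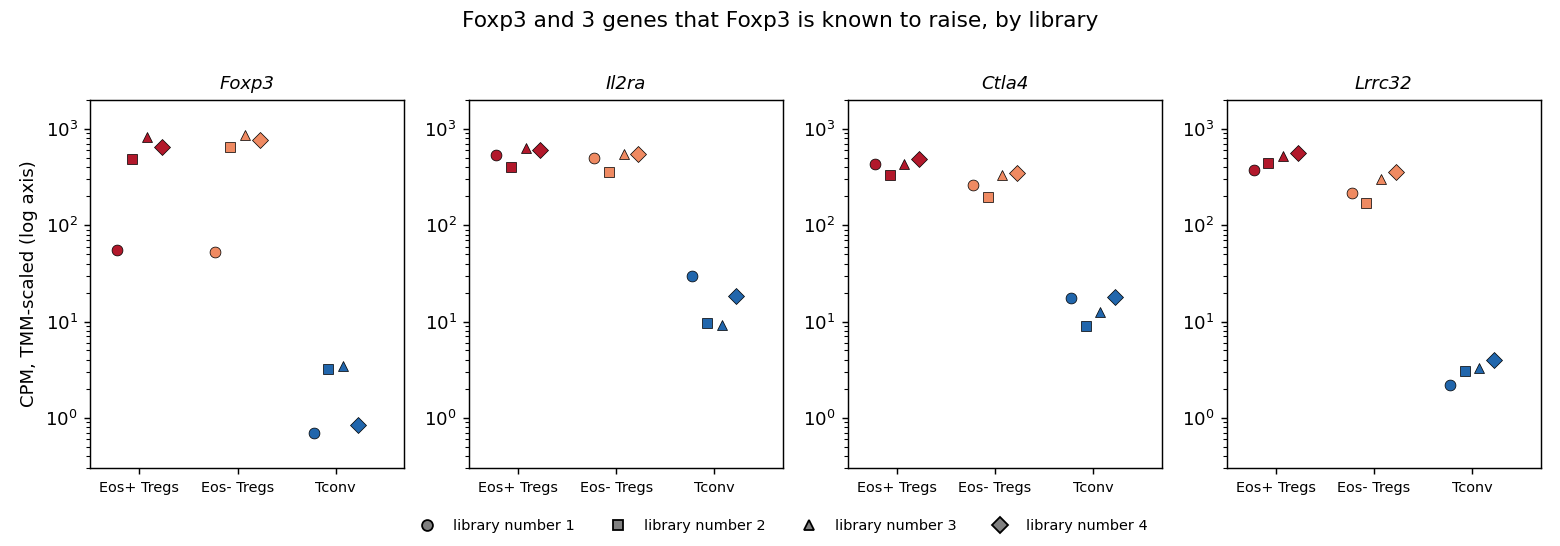
Level of Foxp3 and of 3 genes that Foxp3 is known to raise (CPM on a log axis) in each library of the 3 populations, with points marked by library number. Foxp3 is 55.0 and 53.3 CPM in the Treg libraries numbered 1 and 485 to 862 in the other Treg libraries, while Il2ra, Ctla4 and Lrrc32 show no drop of that size.

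Over 4 libraries Eos+ Tregs averaged 504 ± 329 CPM, Eos- Tregs 582 ± 363 and Tconv 2.03 ± 1.47 (SD, n = 4). The SD was thus 65.3% of the mean in Eos+ Tregs and 62.3% in Eos- Tregs. Over libraries 2 to 4 alone the means were 654 ± 167 and 758 ± 105 CPM (SD, n = 3), and the SD fell to 25.6% and 13.8% of the mean. The mean of libraries 2 to 4 was 11.9 times library 1 in Eos+ Tregs and 14.2 times in Eos- Tregs. In Tconv, at very low levels, that ratio was 3.62.

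Few genes of comparable level spread as widely. Of 2556 genes averaging at least 100 CPM in Eos+ Tregs, 6 had a larger SD relative to the mean than Foxp3, among them Fkbp5 and Hspa1a. In Eos- Tregs there were 7 of 2574, among them Il7r, Tnfaip3 and Hspa1a. In both Treg populations at once, 31 genes of any level were more than 5-fold lower in library 1 than in the lowest of the others. Foxp3 was the only one of the 31 with a mean of at least 50 CPM in libraries 2 to 4 of both. In the opposite direction, 15 genes were more than 5-fold higher in library 1 of both populations, and the 4 at 50 CPM or more there were Ctse and the globins Hbb-bs, Hba-a1 and Hba-a2.

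Other Treg markers were lower in library 1 by far less than Foxp3, or were not lowest there. Il2ra, the alpha subunit of the interleukin-2 receptor, was 538, 402, 642 and 602 CPM in Eos+ Treg libraries 1 to 4 and 496, 355, 553 and 554 in Eos- Tregs. Ctla4, an inhibitory receptor, was 436, 335, 435 and 489 CPM in Eos+ Tregs and 261, 198, 333 and 350 in Eos- Tregs. For both genes library 1 lay inside the range of the other libraries in each Treg population. Library 1 was the lowest for Ikzf2 (Helios) at 465 CPM against 555 to 740 in Eos+ Tregs and 262 against 398 to 458 in Eos- Tregs. It was also the lowest for Tnfrsf18 (GITR), at 1120 against 1210 to 1320 and 816 against 872 to 1260 CPM, and in Eos+ Tregs for Lrrc32, at 376 against 442 to 559 CPM. Across the 19 listed genes that Foxp3 is known to raise, the median log2 ratio of library 1 to the mean of libraries 2 to 4 was -0.03 in Eos+ Tregs and 0.07 in Eos- Tregs, and 0 of the 19 were below the mean by more than 5-fold. For 13 listed genes that Foxp3 is known to lower, the medians were 0.26 and 0.44.

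Transcripts of other cells were also higher in the libraries numbered 1. The erythroid marker Hbb-bs was 165, 149 and 127 CPM in library 1 of Eos+ Tregs, Eos- Tregs and Tconv, and at most 13.2 CPM in any other library. Hba-a1 was 136, 121 and 93.2 CPM there and at most 9.24 CPM elsewhere. The summed CPM of 6 markers of double-positive thymocytes, the CD4+CD8+ precursors that fill the thymus, was 313 and 326 in the Treg libraries numbered 1 and 32.8 to 149 in the other Treg libraries. In Tconv it was 263 in library 1 and 272 in library 2. Their part in the Foxp3 level was not tested. These are bulk samples, and the part of Foxp3+ cell numbers or of Foxp3 RNA per cell in the low level was not tested either. Ddx3y was at 120 to 187 CPM in libraries 1 and 3 of the 3 groups, and Treg Foxp3 was lowest in library 1 and highest in library 3. The part of sex in the Foxp3 level was not tested.

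The difference in Foxp3 between the Treg populations was within this spread. The log2 difference of Eos+ from Eos- Tregs was -0.21 ± 0.77 (SE, edgeR quasi-likelihood F test, adjusted p = 0.898), with a 95% interval from -1.95 to 1.54. With the library number as a block the estimate was -0.17 ± 0.25 (SE, edgeR adjusted p = 0.676). Within library numbers the ratio of Eos+ to Eos- Tregs was 1.03, 0.744, 0.951 and 0.862, below 1 in 3 of 4 numbers. Without the libraries numbered 1 the log2 difference was -0.22 (adjusted p = 0.705, edgeR). Without the block it turned to 0.17 when Eos+ Treg library 1 was left out and to 0.04 when Eos- Treg library 3 was, fits in which a library lacks its same-numbered partner. Against Tconv the fitted folds were 251 in Eos+ Tregs and 290 in Eos- Tregs, a check of the labels rather than a finding, since the cells were sorted on a Foxp3 reporter.

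The Foxp3 gene shares exon positions with 4 other annotated genes, and the library kit does not mark strand. Ppp1r3f covers 266 (5.81%) of the 4577 exon bases of Foxp3, Gm36995 373 (8.15%), Ccdc22 590 (12.9%) and Flicr, a long non-coding RNA on the same strand that is known to hold Foxp3 down, 853 (18.6%). Reads in these bases cannot be told apart by strand. Adding the counts of all 4 to Foxp3 gave 157, 609, 938 and 760 CPM in Eos+ Treg libraries 1 to 4 and 157, 790, 993 and 873 in Eos- Tregs, so the libraries numbered 1 stayed the lowest by far.

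**Figure D2:**
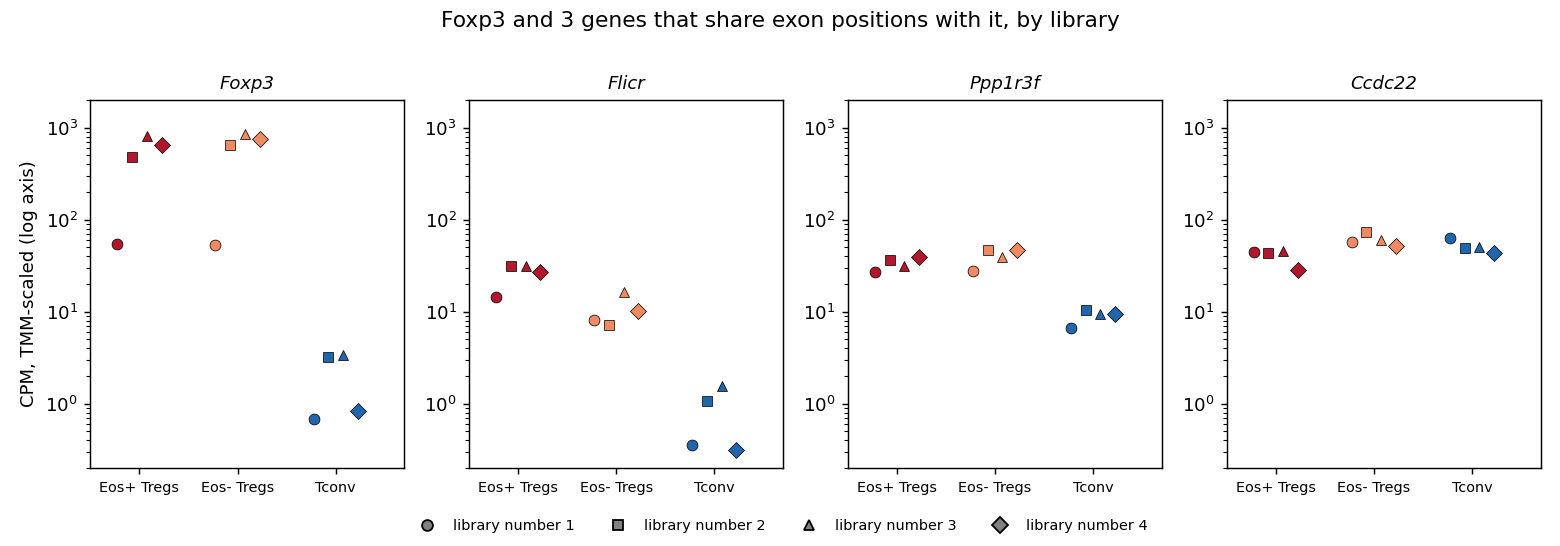
Level of Foxp3 and of 3 annotated genes that share exon positions with it (CPM on a log axis) in each library of the 3 populations, with points marked by library number. Foxp3 falls to 55.0 and 53.3 CPM in the Treg libraries numbered 1, where Ccdc22 stands at 44.2 and 57.4 CPM, inside the range of the other libraries of its group. Ppp1r3f, at 27.3 and 27.8 CPM there, is the lowest of each Treg population. Flicr is the lowest there in Eos+ Tregs (14.6 CPM) but not in Eos- Tregs (8.18 CPM).

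Flicr was 14.6, 31.7, 31.6 and 27.2 CPM in Eos+ Treg libraries 1 to 4, 8.18, 7.15, 16.2 and 10.3 in the Eos- Tregs, and 0.36, 1.06, 1.55 and 0.315 in Tconv. Eos- Treg library 3 overlapped the lowest Eos+ Treg library, and all Treg libraries were above all Tconv libraries. Its log2 difference between Eos+ and Eos- Tregs was 1.33 ± 0.43 (SE) and missed the threshold in edgeR (adjusted p = 0.0539). With the library number as a block the adjusted p was 0.0121 (edgeR), and without the libraries numbered 1 it was 0.0493. It also passed without Eos+ Treg library 1 (adjusted p = 0.0381, edgeR), without Eos- Treg library 3 (0.0418) and without Tconv library 1, 3 or 4 (0.0464, 0.0342 and 0.0376). The other fits without 1 library missed it (up to 0.139). Flicr passed with DESeq2 (adjusted p = 0.0111) and limma-voom (0.00724). In edgeR it passed with these 2 groups alone (0.0222), total counts (0.0474) and a 1 CPM filter (0.0495), but not with no filter. Against Tconv, Flicr was higher by 5.00 in Eos+ Tregs and by 3.67 in Eos- Tregs on the log2 scale (edgeR adjusted p = 1.2e-05 and 0.00031).

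Ppp1r3f, a regulatory subunit of protein phosphatase 1, averaged 33.6 ± 5.41 CPM (Eos+ Tregs), 40.4 ± 9.24 (Eos- Tregs) and 9.07 ± 1.67 (Tconv; SD, n = 4). It was higher than in Tconv by 1.89 and 2.16 on the log2 scale (edgeR adjusted p = 1.54e-05 and 1.92e-05). Ccdc22, an adaptor of endosomal sorting, averaged 40.5 ± 8.34, 60.5 ± 9.6 and 51.4 ± 8.31 CPM, and was lower in Eos+ than Eos- Tregs by a log2 difference of -0.58 (adjusted p = 0.0362, edgeR). That call was lost when Eos+ Treg library 1, 2 or 4, Eos- Treg library 2 or 3, or Tconv library 3 was left out (adjusted p = 0.0511 to 0.106). Syp, a gene near this cluster, also differed from Tconv, at 29.4 ± 7.58 (Eos+ Tregs), 20.3 ± 3.83 (Eos- Tregs) and 0.835 ± 0.275 CPM (Tconv). Cacna1f, likewise near the cluster, was at most 0.622 CPM in any library, so the difference of Syp is not shared by every gene there.

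Without the block, Foxp1 was the 1 member called between the Treg populations, and with it Foxo1 and Foxo3 were called as well. Of all 5, 0 were higher and 1 lower in Eos+ than Eos- Tregs at an adjusted p of 0.05, where 9.82% of all tested genes were called higher and 6.45% lower (16.3% in either direction). In Eos+ Tregs against Tconv, 2 were higher and 1 lower, beside 17.3% and 13% of all genes (30.3% in either direction). In Eos- Tregs against Tconv, 3 were higher and 0 lower, beside 8.76% and 5.89% (14.6% in either direction). Foxp3 is one of those higher in both comparisons with Tconv, which share the Tconv libraries. With the library number as a block, Eos+ against Eos- Tregs had 0 members higher and 3 lower, beside 13.1% and 9.67% of all genes. Eos+ Tregs against Tconv then had 3 higher and 2 lower (19.8% and 16.5% of all genes), and Eos- Tregs against Tconv 3 and 0 (11.3% and 10.2%). In either direction, 22.8%, 36.3% and 21.5% of all genes were called with the block. When the libraries numbered 1 were left out, the members' counts were 0 higher and 1 lower (9.34% and 5.4% of all genes), 3 and 1 (15.6% and 10.9%), and 3 and 0 (8.41% and 7.07%), and 14.7%, 26.5% and 15.5% of all genes were called in either direction. Groups did not overlap for 1, 2 and 2 of the 5, beside 20%, 33.1% and 20.1% of all tested genes.

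**Figure D3:**
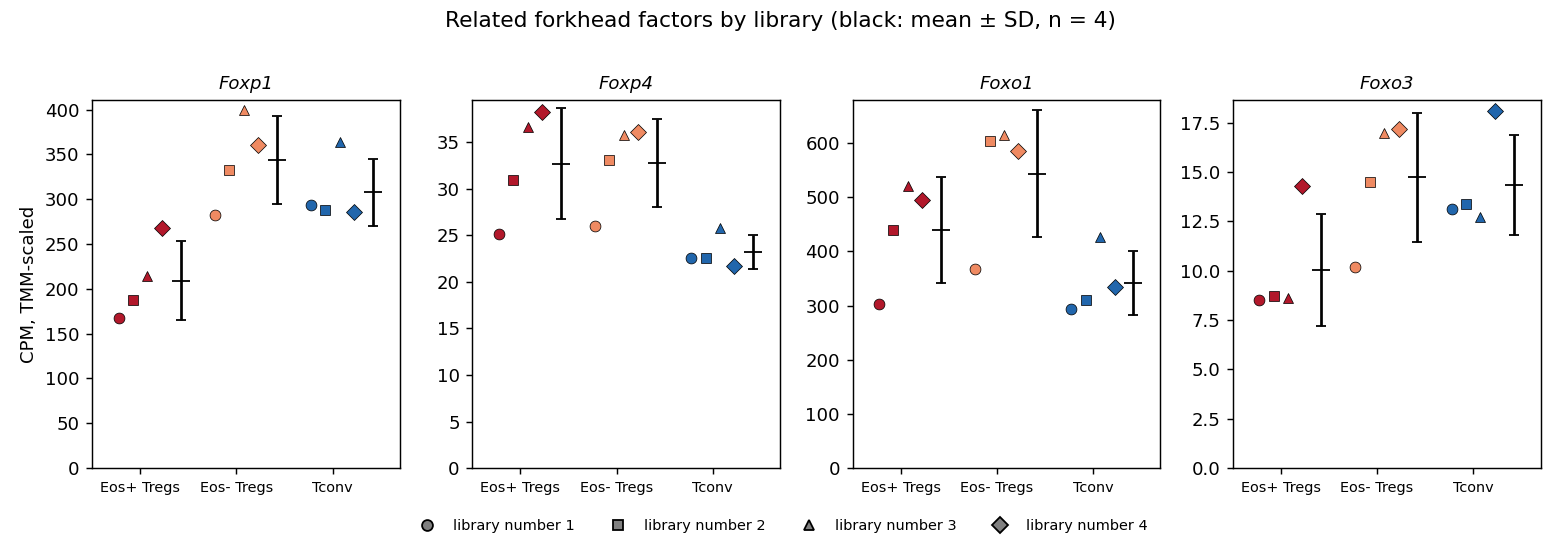
Level of Foxp1, Foxp4, Foxo1 and Foxo3 (CPM) in each library of the 3 populations, points marked by library number, with mean and SD (n = 4) in black. Foxp1 lies at 167 to 268 CPM in Eos+ Tregs, below the 282 to 399 of Eos- Tregs and the 286 to 364 of Tconv.

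Foxp1 was lower in Eos+ Tregs than in either other population. Foxp1 (ENSMUSG00000030067.17, chromosome 6, 98925338 to 99522721, - strand) stood at 167, 188, 214 and 268 CPM in Eos+ Treg libraries 1 to 4, at 282, 333, 399 and 361 in Eos- Tregs and at 293, 288, 364 and 286 in Tconv. All Eos+ Treg libraries were below all libraries of the other populations, and Eos- Tregs overlapped Tconv. The Eos+ Treg mean of 209 ± 43.4 CPM was 1.64-fold below the Eos- Treg mean of 344 ± 49.1 (SD, n = 4) in the fit, a log2 difference of -0.72 ± 0.15 (SE, edgeR adjusted p = 0.00498). Eos+ Tregs were lower in 4 of 4 library numbers. Against Tconv, at 308 ± 37.9 CPM, Eos+ Tregs were lower by a log2 difference of -0.56 ± 0.15 (SE, edgeR adjusted p = 0.0114), again in 4 of 4 numbers. Eos- Tregs against Tconv gave 0.16 ± 0.15 (SE, edgeR adjusted p = 0.537). Leaving out any one library kept the first 2 calls (adjusted p at most 0.0196 and 0.0386, edgeR).

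Foxp1 shares 300 exon bases (2.18% of its 13751) with Gm20696, a protein-coding gene model on the same strand. Gm20696 averaged 8.46 ± 5.83, 27.0 ± 12.1 and 20.4 ± 6.3 CPM in Eos+ Tregs, Eos- Tregs and Tconv (SD, n = 4). Its log2 differences of Eos+ Tregs from Eos- Tregs and Tconv were -1.67 (adjusted p = 0.0233, edgeR) and -1.27 (adjusted p = 0.0478), with Eos+ Treg library 4 (16.4 CPM) above the lowest library of each (15.7 and 13.1). The first call was lost without Eos+ Treg library 1, 2 or 3 or Eos- Treg library 3 (adjusted p = 0.0508 to 0.0784, edgeR). The second was lost without the libraries numbered 1 (0.1), without Eos+ Treg library 1, 2 or 3, Eos- Treg library 2 or 4, or Tconv library 1, 2 or 3 (0.0595 to 0.126), and in a fit of these 2 groups alone (0.0534). The 6 B cell markers summed to 39.0 to 150 CPM (Eos+ Tregs), 3.53 to 25.5 (Eos- Tregs) and 8.31 to 50.5 (Tconv), none of the 6 being 0 throughout. The part of such cells in the levels of Foxp1, which B cells express too, was not tested.

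Foxp4 was the FoxP member of lowest level in Tregs and was higher in both Treg populations than in Tconv by a modest amount. Foxp4 (ENSMUSG00000023991.16, chromosome 17, 47867133 to 47924645, - strand) stood at 25.1, 30.9, 36.6 and 38.2 CPM in Eos+ Treg libraries 1 to 4, at 26.0, 33.1, 35.8 and 36.1 in Eos- Tregs and at 22.6, 22.6, 25.8 and 21.7 in Tconv. The libraries numbered 1 were the lowest of each Treg population, and Eos+ Treg library 1 lay below the highest Tconv library. Means of 32.7 ± 5.97 and 32.7 ± 4.71 CPM compared with 23.2 ± 1.78 in Tconv (SD, n = 4), 1.41-fold higher in both fits. The log2 differences were 0.50 ± 0.15 for Eos+ Tregs (SE, edgeR adjusted p = 0.0242) and 0.50 ± 0.15 for Eos- Tregs (SE, edgeR adjusted p = 0.0428), higher in 4 of 4 library numbers in each. The first call was lost without Eos+ Treg library 3 or 4 or Tconv library 1, 2 or 4 (adjusted p = 0.0576 to 0.0715, edgeR). The second was lost without Eos+ Treg library 2 or 3, Eos- Treg library 2, 3 or 4, or any one Tconv library (adjusted p = 0.0526 to 0.124), and also with no filter on low counts (0.0743). With the library number as a block both held (edgeR adjusted p = 0.00798 and 0.0132). The Treg populations did not differ in Foxp4 beyond their spread, with a log2 difference of -0.00 ± 0.15 (SE, edgeR adjusted p = 0.997) and a 95% interval from -0.34 to 0.34.

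Foxo1 was the most abundant of the 4 related members and was highest in Eos- Tregs. Foxo1 (ENSMUSG00000044167.6, chromosome 3, 52268336 to 52353221, + strand) stood at 302, 439, 521 and 494 CPM in Eos+ Treg libraries 1 to 4, at 368, 603, 615 and 586 in Eos- Tregs and at 293, 311, 426 and 335 in Tconv. Library 1 was the lowest of each population. Eos- Treg library 1, at 368 CPM, fell inside the Tconv range, and the other 3 Eos- Treg libraries were above all Tconv libraries. Means were 439 ± 97.5, 543 ± 117 and 341 ± 59.4 CPM (SD, n = 4). Eos- Tregs exceeded Tconv 1.59-fold in the fit, a log2 difference of 0.67 ± 0.19 (SE, edgeR adjusted p = 0.0346). That call was lost without Eos- Treg library 2, 3 or 4 or Tconv library 1, 2 or 4 (adjusted p = 0.0787 to 0.0993, edgeR), and held with the block (0.000942) and without the libraries numbered 1 (0.00219).

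Between the Treg populations Foxo1 was lower in Eos+ Tregs in 4 of 4 library numbers, with a log2 difference of -0.31 ± 0.19 (SE) that missed the threshold (adjusted p = 0.328, edgeR). With the library number as a block the difference of -0.31 ± 0.096 (SE) passed it (adjusted p = 0.0414). Against Tconv, Eos+ Tregs were higher in 4 of 4 numbers by 0.36 ± 0.19 on the log2 scale (SE, edgeR adjusted p = 0.185). This difference passed with the block (0.34, adjusted p = 0.0175, edgeR), and also when the libraries numbered 1 were left out (0.43, adjusted p = 0.0201) or Eos+ Treg library 1 alone (0.51, adjusted p = 0.0489). Foxo1 shares 674 (7.78%) of its exon bases with the antisense model Gm20402, which was at most 7.83 CPM in any library.

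Foxo3 was the least abundant member in Tregs. Foxo3 (ENSMUSG00000048756.11, chromosome 10, 42181841 to 42276755, - strand) stood at 8.5, 8.7, 8.63 and 14.3 CPM in Eos+ Treg libraries 1 to 4, at 10.2, 14.5, 17.0 and 17.2 in Eos- Tregs and at 13.1, 13.4, 12.7 and 18.1 in Tconv. Eos+ Treg library 4 lay inside the range of both other populations, and the other 3 Eos+ Treg libraries were below all of those. Means were 10.0 ± 2.85, 14.7 ± 3.24 and 14.3 ± 2.52 CPM (SD, n = 4). In 4 of 4 library numbers Eos+ Tregs were below Eos- Tregs and below Tconv, with log2 differences of -0.55 ± 0.22 and -0.51 ± 0.22 (SE) that missed the threshold (edgeR adjusted p = 0.12 and 0.107). With the block both passed (adjusted p = 0.0328 and 0.0278, edgeR). Without Eos+ Treg library 4 both passed as well (0.0263 and 0.0204), and without Eos- Treg library 1 the first did (0.0423). Eos- Tregs and Tconv differed by 0.04 ± 0.22 on the log2 scale (SE, edgeR adjusted p = 0.943).

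**Figure D4:**
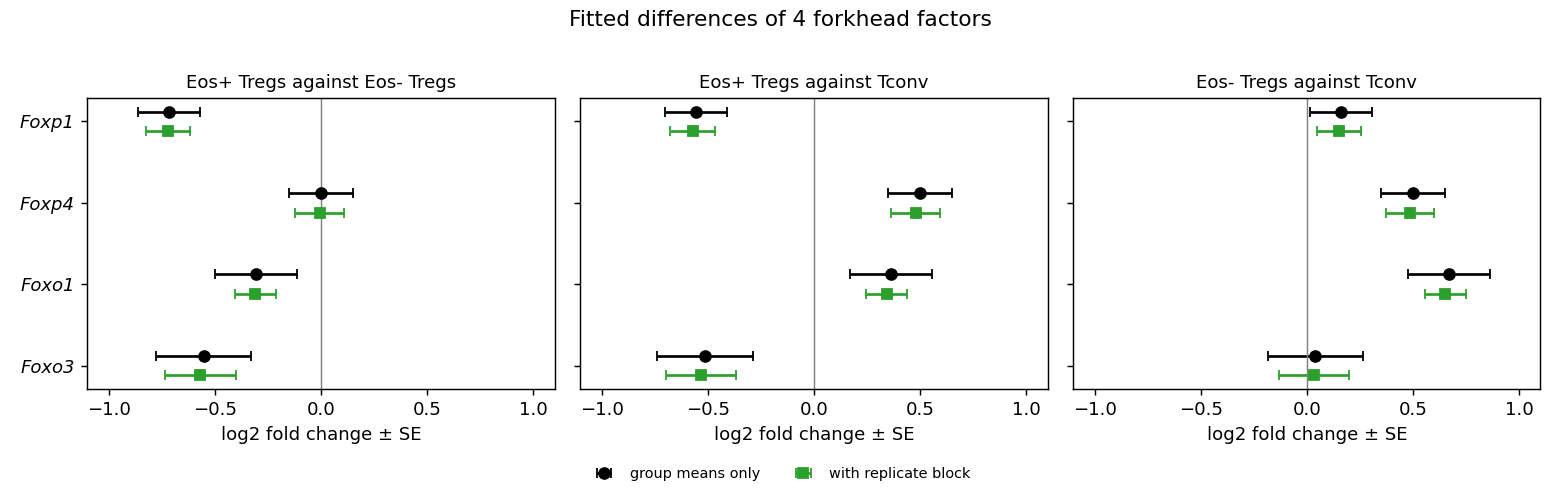
Fitted log2 fold changes with SE of Foxp1, Foxp4, Foxo1 and Foxo3 in the 3 comparisons, black circles from the fit with group means only and green squares from the fit with the replicate block. Foxp1 is at -0.72 and -0.56 in the comparisons of Eos+ Tregs, and Foxp4 at 0.50 in both comparisons with Tconv.

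All 5 members were at their lowest in library 1 of both Treg populations, which holds for 1987 (12.9%) of the 15361 tested genes. For Foxo3 in Eos+ Tregs the margin was small, at 8.5 against 8.63 CPM. Levels were also set per kilobase of exon merged over all annotated transcripts. These number 10 for Foxp3, 31 for Foxp1 and 1 for Foxo1, so the scale is only rough between genes. On it Foxp3 ranked first in Eos- Tregs at 127 ± 79.3 CPM per kb and in Eos+ Tregs at 110 ± 71.9 (SD, n = 4). Foxo1 followed at 62.7 ± 13.5 and 50.7 ± 11.3, then Foxp1 at 25.0 ± 3.57 and 15.2 ± 3.16, Foxp4 at 6.64 ± 0.956 and 6.64 ± 1.21, and Foxo3 at 1.94 ± 0.428 and 1.33 ± 0.377 CPM per kb. Foxp3 and Foxo1 overlapped in this order within each Treg population because of the libraries numbered 1, and no other neighbours in the order overlapped over libraries. In Tconv the order was Foxo1 at 39.4 ± 6.85, Foxp1 at 22.4 ± 2.75, Foxp4 at 4.7 ± 0.362, Foxo3 at 1.89 ± 0.333 and Foxp3 at 0.445 ± 0.322 CPM per kb, with no overlap between neighbours.

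Of 39 other forkhead genes in the table, 9 passed the filter on low counts and 13 had no count in any library. Among the 9, only Foxn3, a transcriptional repressor, was called in any comparison by edgeR without the block. In either direction, 16.3% of all tested genes were called in Eos+ against Eos- Tregs (22.8% with the block). The shares were 30.3% in Eos+ Tregs against Tconv (36.3% with the block) and 14.6% in Eos- Tregs against Tconv (21.5%). Foxn3 stood at 181, 194, 227 and 272 CPM in Eos+ Treg libraries 1 to 4, at 347, 416, 493 and 524 in Eos- Tregs and at 252, 289, 287 and 311 in Tconv. Eos- Tregs were above both other populations in every library. Its log2 difference between Eos+ and Eos- Tregs was -1.03 ± 0.15 (SE, edgeR adjusted p = 0.000505), and between Eos- Tregs and Tconv 0.64 (adjusted p = 0.00982). Between Eos+ Tregs and Tconv it was -0.38 (adjusted p = 0.064), which passed with the block (0.00169). With the block 2 more differences passed: Foxo4, the third FoxO factor here and at most 3.95 CPM, was lower in Eos+ Tregs than Tconv (-1.12, adjusted p = 0.0197, edgeR), and Foxj2 was higher in Eos- Tregs than Tconv (0.33, adjusted p = 0.0379).

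Listed genes that Foxp3 is known to raise were mostly higher in Eos+ than Eos- Tregs, although Foxp3 itself did not differ beyond its spread. This list and those that follow were chosen with earlier results of these data known. It also holds Ikzf4, the gene of Eos, so its counts only describe the list. Of 19 listed genes, all tested, 13 were higher and 1 lower in Eos+ Tregs (median log2 difference 0.88, all genes 0.00), beside 9.82% and 6.45% of all genes. Against Tconv 19 of 19 were higher in Eos+ Tregs (median 3.51, all genes -0.01) and 16 of 19 in Eos- Tregs (median 2.44, all genes -0.01). Of all genes, 17.3% and 8.76% were called higher in these comparisons. Tigit, an inhibitory receptor, averaged 47.2 ± 7.14, 2.64 ± 1.17 and 0.542 ± 0.434 CPM in Eos+ Tregs, Eos- Tregs and Tconv (SD, n = 4), a log2 difference of 4.17 ± 0.42 between the Treg populations (SE, edgeR adjusted p = 4.38e-05). Itgae, the integrin CD103, was 317 ± 74.4 CPM in Eos+ Tregs and did not separate Eos- Tregs from Tconv (30.5 ± 13.1 and 27.8 ± 16.9). Penk, the enkephalin precursor (693 ± 98.2, 113 ± 34.7 and 9.47 ± 4.67 CPM), and Nrp1, a surface receptor of thymic Tregs (657 ± 55.3, 131 ± 19.9 and 20.3 ± 5.95), rose in steps from Tconv to Eos+ Tregs with no overlap. Lrrc32, which displays latent TGF-beta, was 474 ± 81.5, 261 ± 83.4 and 3.12 ± 0.722 CPM. The 1 lower gene was Gpr83, a G protein-coupled receptor, at a log2 difference of -1.27 ± 0.30 (SE, edgeR adjusted p = 0.0107), named after its value was seen. Il2ra gave 0.16 ± 0.31 (SE, edgeR adjusted p = 0.794) and Ctla4 0.57 ± 0.22 (SE, adjusted p = 0.0965, and 0.00414 with the block). Ctla4 also passed with DESeq2 (adjusted p = 0.0408) and limma-voom (0.0271). It missed the threshold in edgeR without the libraries numbered 1 (0.235) and without any one library (0.0609 to 0.236).

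**Figure D5:**
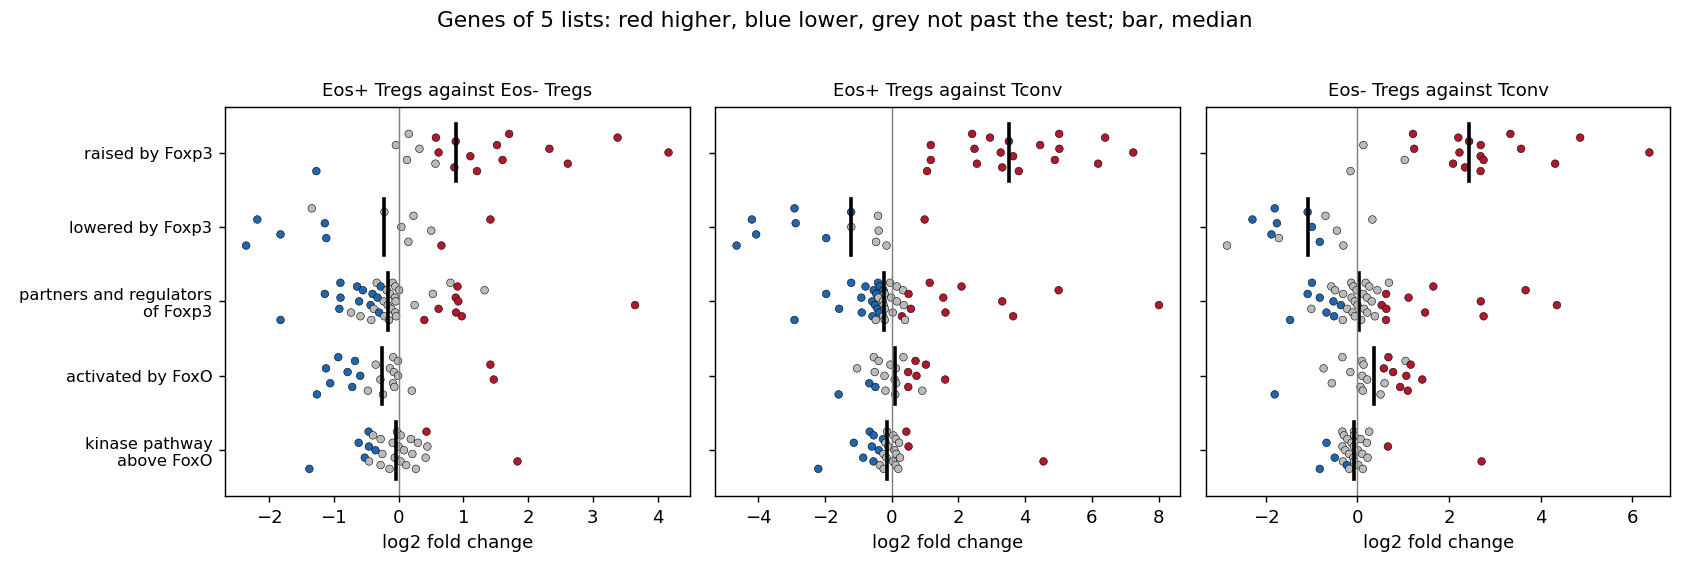
Log2 fold changes of the tested genes of 5 lists in the 3 comparisons, red for higher, blue for lower, grey for those not past the test, with a bar at each list's median. The list of genes that Foxp3 is known to raise has medians of 0.88, 3.51 and 2.44, and the list it is known to lower -0.22, -1.21 and -1.09.

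Genes that Foxp3 is known to lower moved less uniformly. Of 13 tested of 14 listed, 2 were higher and 5 lower in Eos+ than Eos- Tregs (median -0.22), beside 9.82% and 6.45% of all genes. Against Tconv, 1 was higher and 7 lower in Eos+ Tregs (median -1.21), beside 17.3% and 13% of all genes. In Eos- Tregs 0 were higher and 7 lower (median -1.09), beside 8.76% and 5.89%. Without the libraries numbered 1 the lower count in Eos- Tregs became 10, beside 7.07% of all genes. With the block 1 was higher and 10 lower there, beside 11.3% and 10.2% of all genes. Satb1, a chromatin organizer, averaged 415 ± 90, 1470 ± 208 and 3120 ± 439 CPM in Eos+ Tregs, Eos- Tregs and Tconv (SD, n = 4). Lef1, a partner of beta-catenin, followed the same order at 303 ± 36.4, 668 ± 88 and 1180 ± 115. Igfbp4 (19.6 ± 7.13, 100 ± 36.4 and 491 ± 148) and the phosphodiesterase Pde3b (11.7 ± 3.99, 53.2 ± 21.5 and 196 ± 14.5) did so as well. All 4 were called in each of the 3 comparisons. The 2 higher in Eos+ Tregs were Ptpn22, a phosphatase of T cell receptor signalling (0.66 ± 0.13, SE, edgeR adjusted p = 0.0044), named after its value was seen, and Il7r.

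Il7r encodes the interleukin-7 receptor, stands on both the list lowered by Foxp3 and the list of FoxO targets, and averaged 311 ± 112, 117 ± 79.4 and 408 ± 89.1 CPM in Eos+ Tregs, Eos- Tregs and Tconv (SD, n = 4). Its log2 difference between Treg populations was 1.42 ± 0.38 (SE, edgeR adjusted p = 0.0218). That call was lost without Eos+ Treg library 1 or Eos- Treg library 2, 3 or 4 (adjusted p = 0.0555 to 0.068) and in a fit of these 2 groups alone (0.0508). With the block the adjusted p was 0.000819.

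Other FoxO targets were mostly lower in Eos+ than Eos- Tregs where they passed the test. Of 22 tested of 23 listed, 2 were higher and 8 lower between the Treg populations (median -0.26), beside 9.82% and 6.45% of all genes. Against Tconv 6 were higher and 3 lower in Eos+ Tregs (median 0.10), beside 17.3% and 13% of all genes, the lower count being near that share. In Eos- Tregs 8 were higher and 1 lower (median 0.36), beside 8.76% and 5.89%. S1pr1, the receptor for exit from the thymus, averaged 343 ± 75.2, 713 ± 50.8 and 319 ± 34.2 CPM. Its log2 difference between Eos+ and Eos- Tregs was -1.06 (edgeR adjusted p = 0.000344). Klf2, the factor that drives S1pr1, averaged 295 ± 127, 564 ± 178 and 269 ± 54.3 CPM, with overlap between the Treg populations (Eos+ up to 437, Eos- from 403). Its deficit in Eos+ against Eos- Tregs (-0.93, adjusted p = 0.0477, edgeR) was lost without the libraries numbered 1 (0.058), in a fit of these 2 groups alone (0.0819) and without any one library other than Eos+ Treg library 4 and Eos- Treg library 1 (0.0549 to 0.14), and held with the block (0.000343). Its excess in Eos- Tregs over Tconv (1.07, adjusted p = 0.0285, edgeR) was lost without Eos- Treg library 3 or 4 or Tconv library 1, 2 or 4 (adjusted p = 0.0518 to 0.0958) and held with the block (0.000237). Bcl2l11, the pro-apoptotic Bim, was lower in Eos+ Tregs than in either other population (31.4 ± 5.89 against 75.3 ± 29.1 and 94.5 ± 11.7 CPM). Sesn2, a stress-induced inhibitor of mTORC1, was higher (37.5 ± 6.93 against 13.6 ± 3.6 and 12.4 ± 2.88). The FoxO target list is known from several cell types, and which of its genes FoxO factors act on in these cells was not measured.

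In the kinase pathway that acts on FoxO proteins more genes were called lower than higher in each comparison. Of 28 listed genes, all tested, 2 were higher and 6 lower in Eos+ than Eos- Tregs (median -0.04), beside 9.82% and 6.45% of all genes. Against Tconv 3 were higher and 9 lower in Eos+ Tregs (median -0.15), beside 17.3% and 13% of all genes. In Eos- Tregs 2 were higher and 4 lower (median -0.08), beside 8.76% and 5.89% of all genes. With the block 2 were higher and 8 lower there, beside 11.3% and 10.2%. Phlpp1, a phosphatase that removes the activating phosphate from Akt, averaged 157 ± 34.6, 43.9 ± 18 and 6.7 ± 0.777 CPM in Eos+ Tregs, Eos- Tregs and Tconv (SD, n = 4). Its log2 difference was 1.84 ± 0.27 between the Treg populations (SE, edgeR adjusted p = 0.000607). Sgk3, a kinase that also phosphorylates FoxO proteins, ran the other way at 15.7 ± 4.21, 40.9 ± 11.5 and 72.3 ± 11.4 CPM. Its difference between Eos- Tregs and Tconv (-0.82, adjusted p = 0.0227, edgeR) was lost without Eos- Treg library 2, 3 or 4 or Tconv library 1 or 2 (adjusted p = 0.0539 to 0.0677). Akt2 was lower in Eos+ Tregs than in both others (171 ± 16.1 against 245 ± 13.3 and 258 ± 12.3 CPM), and Pik3r1, a regulatory subunit of PI3K, was higher in Eos- Tregs (216 ± 30) than in Eos+ Tregs (141 ± 23.5) or Tconv (137 ± 13.7).

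Partners and regulators of Foxp3 changed in both directions. Of 44 listed genes, all tested, 8 were higher and 13 lower in Eos+ than Eos- Tregs (median -0.16), beside 9.82% and 6.45% of all genes. Against Tconv 11 were higher and 17 lower in Eos+ Tregs (median -0.23), beside 17.3% and 13% of all genes. In Eos- Tregs 11 were higher and 8 lower (median 0.04), beside 8.76% and 5.89%. With the block 12 were higher and 12 lower there, beside 11.3% and 10.2%. Hdac9, a histone deacetylase known to act on Foxp3 protein, averaged 55.3 ± 15.8, 4.4 ± 2.77 and 0.2 ± 0.19 CPM (SD, n = 4), a log2 difference of 3.65 ± 0.47 between the Treg populations (SE, edgeR adjusted p = 0.00026). Ikzf2 (Helios), a relative of Eos, averaged 585 ± 114, 381 ± 83.7 and 58.9 ± 12 CPM, and Hif1a, the hypoxia factor, 510 ± 41.1, 269 ± 16.8 and 175 ± 13.7. Of those lower in Eos+ than Eos- Tregs, Satb1 had a log2 difference of -1.82 and Lef1 of -1.14 (edgeR adjusted p = 1.88e-05 and 4.56e-05). Rel, the NF-kB subunit that helps to open the Foxp3 gene, separated both Treg populations (143 ± 55.5 and 147 ± 42.7 CPM) from Tconv (46.8 ± 6.35) but not from each other (log2 difference -0.05 ± 0.26, SE, edgeR adjusted p = 0.935). The 5 lists hold 122 genes, of which 6 (Ikzf2, Ikzf4, Il7r, Lef1, Satb1 and Tcf7) stand on 2 of them.

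Likeness was described by Pearson's r of log2(CPM + 1) over the 12 libraries, which share their groups and numbers, and so carries no p. The genes most like Foxp3 were Mxi1, an antagonist of Myc (r = 0.981), the receptor Tnfrsf9 (0.974), C1qtnf12 (0.969), Tmem123 (0.968) and Col15a1 (0.967). Tnfrsf9 stood at 275, 396, 533 and 550 CPM in Eos+ Treg libraries 1 to 4 and at 275, 426, 451 and 529 in Eos- Tregs. Library 1 was its lowest too, though by far less than for Foxp3. Among the members themselves, Foxp3 was most like Foxp4 (r = 0.939) and Foxo1 (0.827), and Foxp1 was most like Foxo3 (0.818), while Foxp3 and Foxp1 gave -0.08. The genes most like Foxp1 were Treml2 (0.986), Slfn5 (0.981), Cic (0.971), Hist3h2a (0.961) and Ager (0.958). For Foxp4 they were Frmd6 (0.962), Slc35d1 (0.96), Ncoa3 and Ttc28 (both 0.956) and Slc25a3 (0.953). For Foxo1 they were Smad7, an inhibitor of TGF-beta signalling (0.963), Ski, another such inhibitor (0.949), Ndrg2 (0.948), Dcaf8 (0.946) and Cdk19 (0.943). For Foxo3 they were March7 (0.981), Rad54l2 (0.963), Ccni (0.943), Fopnl (0.931) and Srsf5 (0.927).

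When the group means were removed and the 8 Treg libraries compared, the genes most like Foxp3 were Proser1 (r = 0.994), Foxo1 (0.993), Stk25 (0.991), Igsf3 (0.989) and Tnrc18 (0.988). These values rest on the 2 libraries numbered 1, which lie far from the other 6 for Foxp3. Stk25, a kinase of the Golgi, stood at 48.0, 153, 166 and 182 CPM in Eos+ Treg libraries 1 to 4, at 59.2, 207, 201 and 199 in Eos- Tregs and at 60.9, 177, 180 and 167 in Tconv. Its low value in library 1 was thus also present in Tconv, where Foxp3 is nearly absent.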

How the data were processed

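RNA of sorted mouse thymus T cells was sequenced in 12 libraries, 4 in each of 3 groups taken from the labels. Per the labels' protocols, a low-input template-switching kit turned 1 ng of total RNA into cDNA, which was tagmented, and such libraries do not mark strand. The authors deposited expected counts for each gene, unscaled for depth or length. The submitters' processing notes name cutadapt 1.18, STAR 2.7.0f and RSEM 1.3.1, with mm10 as the genome, and no parameters are given in the sources used here. Positions came from GENCODE M21 (GRCm38), which held each of the 55450 gene IDs, and upstream sequences from RefSeq on GRCm38.p6.

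After rounding, expected counts were tested with edgeR 4.0.16 under R 4.3.3: TMM factors (0.972 to 1.02), the filterByExpr filter, 1 mean per group over all 12 libraries and the two-sided quasi-likelihood F test. P-values were adjusted by the Benjamini-Hochberg method over 15361 genes per comparison, with a threshold of 0.05. An SE is the log2 fold change divided by the square root of F, and 95% intervals use 9 residual degrees of freedom. The scripts were tested on simulated data. DESeq2 1.42.0, limma-voom (limma 3.58.1), other scalings and filters, a replicate block, fits without the libraries numbered 1 and without each library were alternatives. The fits without 1 library carried no block, and each left same-numbered libraries without a partner.

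Same-numbered libraries deviated together: correlations of their deviations from group means, across genes, were 0.138 to 0.318, against -0.226 to 0.0695 for different numbers, so the numbers were taken to pair the samples. Replicates differed by more than sampling noise (chi-square per degree of freedom 26.1 to 81.4).

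Named genes were the 5 members, forkhead genes that were called, genes sharing exons with members and the neighbours of Foxp3, up to 5 called genes with the largest change per list and comparison, and the 5 most alike genes per member. The text names a part of these. Il2ra, Ctla4, Lrrc32 and the marker genes were given as checks. Members and lists were chosen with earlier results of these data known.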

Additional observations from a re-analysis of the deposited data

Results flagged for a closer look

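In each group of 4 libraries the highest or lowest value was set apart if its gap to the nearest value as a share of the range exceeded Dixon's 95% critical value. Of 24 groups tested, for the 5 members and Flicr, Ppp1r3f and Ccdc22 in the 3 populations, 5 were set apart, and chance gives about 1 in 20. Foxp3 was not set apart in any population, although library 1 was far below the others in both Treg populations. It was 55.0 CPM there against 485 to 820 in Eos+ Tregs, and 53.3 against 653 to 862 in Eos- Tregs. The rule weighs the gap against the whole range, and libraries 2 to 4 spread too. Foxp1 in Tconv library 3 was 364 CPM (gap 0.911 of the range), above the other Tconv libraries at 286 to 293. Foxo1 in Eos- Treg library 1 was 368 CPM (0.881), below the others at 586 to 615, in the library where Foxp3 was also lowest. Foxo3 in library 4 was 14.3 CPM in Eos+ Tregs (0.965) and 18.1 CPM in Tconv (0.881), the highest of each group. Ccdc22 in Eos+ Treg library 4 was 28.1 CPM (0.897), below the others at 44.0 to 45.9.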

How the results depend on the processing

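The counts of all genes called stayed within 1.5 times under every alternative. Foxp1 kept its direction and side of the threshold in all 3 comparisons and every alternative, and the 3 scalings moved the median of all genes by less than 0.1 on the log2 scale. With the replicate block, which pairs libraries by number, Foxo1 and Foxo3 passed in Eos+ against Eos- Tregs (log2 differences -0.31 and -0.57) and in Eos+ Tregs against Tconv (0.34 and -0.53), and no other member's call changed. With the block and without the libraries numbered 1, added after seeing the data, Foxo1 and Foxo3 passed in the first (-0.32 and -0.67) and Foxo1 in the second (0.44). Without those libraries and without the block Foxo1 passed in the second (0.43). Foxp3 against Tconv missed the threshold with limma-voom (7.81, adjusted p = 0.0793, and 8.01, adjusted p = 0.11), and Foxp4 in Eos- Tregs against Tconv with no filter (0.49). Foxp4 between the Treg populations, near 0, changed sign with total counts (0.018), with no filter (0.0075) and without the libraries numbered 1 (0.0025). With 1 library left out at a time, Eos+ against Eos- Tregs ranged from -0.59 to 0.17 for Foxp3, -0.11 to 0.11 for Foxp4, -0.46 to -0.16 for Foxo1 and -0.77 to -0.47 for Foxo3. Eos+ Tregs against Tconv ranged from 0.41 to 0.61 for Foxp4, 0.27 to 0.51 for Foxo1 and -0.73 to -0.38 for Foxo3. Eos- Tregs against Tconv ranged from 0.45 to 0.60 for Foxp4, 0.60 to 0.82 for Foxo1 and -0.045 to 0.18 for Foxo3. The causes of these changes were not tested. Foxp3 between the Treg populations has an SE of 0.77 without and 0.25 with the block.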
